A study of Homo sapiens with 2 samples.

Results

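The genes described are the 10 negative feedback genes of the MAP kinase (MAPK) pathway that were chosen by symbol: the dual-specificity phosphatases DUSP1, DUSP2, DUSP4, DUSP5 and DUSP6, the Sprouty genes SPRY1, SPRY2 and SPRY4, and the Sprouty-related genes SPRED1 and SPRED2. All 10 were found among the 60623 genes of the count tables, and 9 of them had a summed count of at least 20 over both libraries, the minimum for a gene to be called measured here (15660 genes in all). Their RNA was sequenced in the human line OCI-AML3, from acute myeloid leukaemia and labelled as bone marrow and as wild type in genotype, after 24 h in 50 nM omipalisib (GSK2126458) or in the vehicle DMSO. Both cultures grew in MEM alpha medium with serum. Omipalisib is an inhibitor of PI3K lipid kinases and of mTOR, and the study compares RNA levels of the line with and without it. There was 1 library per treatment, so no difference has a replicate check and no p-value is given.

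The RAS, RAF, MEK and ERK kinases relay growth factor signals to the nucleus, and ERK in turn induces genes whose products damp the same pathway. The dual-specificity phosphatases remove the activating phosphates from MAP kinases; DUSP6 acts on ERK in the cytoplasm and DUSP5 on ERK in the nucleus, whereas DUSP1, DUSP2 and DUSP4 are nuclear and accept a wider set of MAP kinases. Sprouty proteins act upstream, between receptor tyrosine kinases and RAF, and SPRED proteins recruit neurofibromin, the RAS-inactivating product of NF1, to the membrane. Because ERK induces several of these genes, their RNA is often read as a measure of ERK pathway output. In myeloid leukaemia the pathway is frequently activated by mutation. Mutations in this line were not examined, and the wild-type label was not checked for RAS pathway genes.

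The upstream sequences are shown first, for DUSP1, DUSP2, DUSP6 and SPRY2. DUSP6 and SPRY2 were higher under omipalisib, while DUSP1 and DUSP2 did not differ beyond counting error. DUSP1 and SPRY2 nevertheless had nearly the same log2 ratio of omipalisib over DMSO, 0.28, at 168 and 4372 summed counts. Each printed sequence is the 250 bases before the RefSeq start site on GRCh38.p14, written 5′ to 3′ on the gene's strand. None overlaps an annotated exon of its gene. Capitals mark every match, on either strand, to a CRE (TGACGTCA), AP-1 (TGANTCA), ETS (CCGGAAG), FOXO (GTAAACA), core promoter TATA box (TATAAA), E-box (CACGTG), CIC (TGAATGAA) or CArG box motif.
DUSP1, chr5:172771196-172771445, minus strand: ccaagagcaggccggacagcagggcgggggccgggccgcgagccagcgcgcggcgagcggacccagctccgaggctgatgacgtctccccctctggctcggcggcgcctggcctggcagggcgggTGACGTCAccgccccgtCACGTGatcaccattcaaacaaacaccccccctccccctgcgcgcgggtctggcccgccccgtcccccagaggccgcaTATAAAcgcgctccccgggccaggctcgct
DUSP2, chr2:96145441-96145690, minus strand: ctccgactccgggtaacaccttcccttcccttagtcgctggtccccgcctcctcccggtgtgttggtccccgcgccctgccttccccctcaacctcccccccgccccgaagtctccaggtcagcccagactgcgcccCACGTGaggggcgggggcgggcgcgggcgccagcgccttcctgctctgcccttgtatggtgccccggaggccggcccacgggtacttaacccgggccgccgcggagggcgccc
DUSP6, chr12:89352502-89352751, minus strand: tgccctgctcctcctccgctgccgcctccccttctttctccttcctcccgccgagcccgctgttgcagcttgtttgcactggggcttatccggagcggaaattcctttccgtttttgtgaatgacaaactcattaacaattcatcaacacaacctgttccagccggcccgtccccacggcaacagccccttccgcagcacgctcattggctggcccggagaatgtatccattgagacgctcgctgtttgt
SPRY2, chr13:80341127-80341376, minus strand: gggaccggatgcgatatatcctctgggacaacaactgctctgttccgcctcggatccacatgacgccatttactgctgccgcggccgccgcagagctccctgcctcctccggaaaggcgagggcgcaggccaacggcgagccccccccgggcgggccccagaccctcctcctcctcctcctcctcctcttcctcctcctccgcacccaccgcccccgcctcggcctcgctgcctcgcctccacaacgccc
The DUSP1 window held 1 CRE, 1 E-box and 1 TATA match, at 125, 108 and 30 bases before the start site (first base of each). DUSP2 held 1 E-box match, 113 bases before its start. DUSP6 and SPRY2 had no match to these 8 motifs in the windows printed. In the RefSeq promoter table used here 8 of the 10 genes were matched, with 12 start sites between them; DUSP4 and DUSP5 were not matched in that table. Over the 12 windows, a CRE was in 1, an ETS match in 1 (SPRY1), an E-box in 2 and a TATA match in 2 (DUSP1 and the downstream start of SPRED2), and AP-1, FOXO, CIC and CArG box matches were in 0. The SPRY1 window with the ETS match, that of its downstream start, lies wholly in annotated exons of the gene. In the SPRY4 window 170 bases, and in that of the upstream SPRED2 start 38 bases, are also exonic. Among 35116 upstream windows of the same length, 1.65% held a CRE, 8.52% an ETS match, 6.34% an E-box, 10.7% a TATA match, 6.57% an AP-1, 2.98% a FOXO, 1.40% a CIC and 1.16% a CArG box match. GC boxes (GGGCGG, not in capitals) were in 6 of the 12 windows and in 42.6% of all windows. In DUSP1, a GC box directly abuts the CRE. These are letter matches and not binding measurements, and a window without a match says only that those letters are absent from it.

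**Figure D1:**
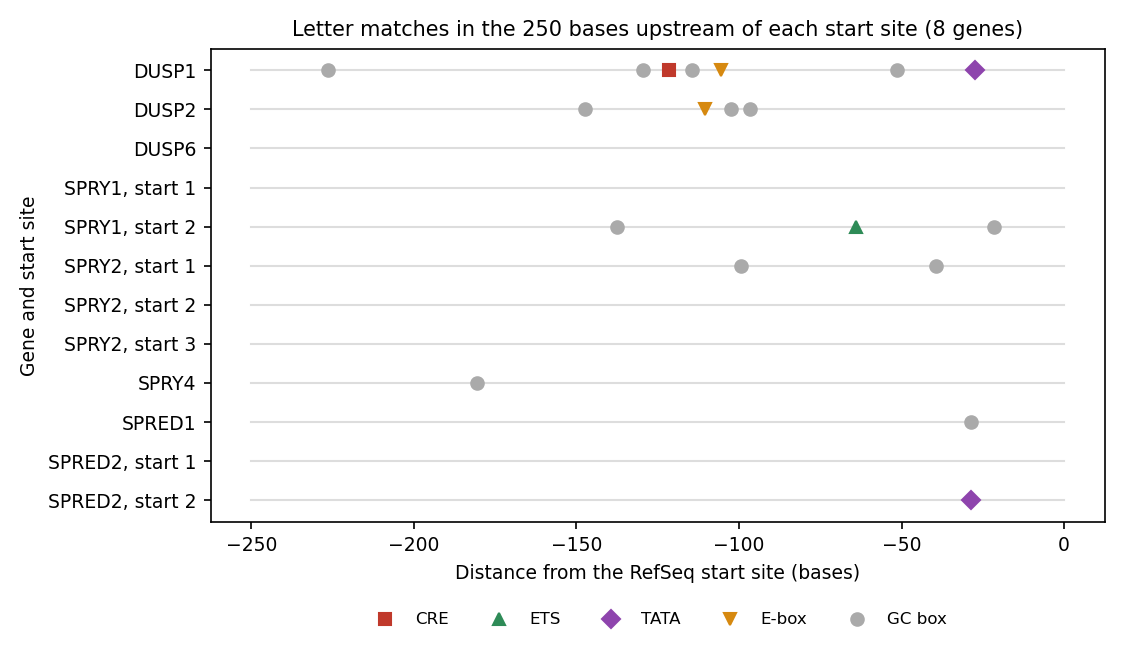
Matches to 5 of the searched motifs (symbols) along the 250 bases before each of the 12 RefSeq start sites of 8 feedback genes; the horizontal axis is the distance from the start site in bases. DUSP1 carries the CRE, an E-box, a TATA match and GC boxes. The lines of DUSP6, SPRY1 start 1, SPRY2 starts 2 and 3 and SPRED2 start 1 are empty.

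Counted fragments summed to 26367832 in DMSO and 22599164 in omipalisib. Levels are given as CPM, the count per 1000000 fragments after the library size was adjusted by the trimmed mean of M-values (TMM), and a count of 3 corresponds to 0.116 CPM in DMSO and 0.131 CPM in omipalisib. Ratios are omipalisib over DMSO on the log2 scale with a 95% counting interval; a gene is called higher or lower where that interval lay above or below 0. They are relative to the rest of the library, and a small difference in all cells cannot be told apart from a large one in some cells. Of 10 myeloid markers, 9 reached 1 CPM in DMSO and 10 in omipalisib, with summed levels of 1663 and 1788 CPM. The 6 lymphoid markers summed to 3.01 and 3.18 CPM, with CD3E, CD3D and MS4A1 at 0 in both libraries, the 6 erythroid and megakaryocyte markers to 10.1 and 12.5 CPM, with HBB, ALAS2 and PF4 at 0, and the 6 stromal and epithelial markers to 15.5 and 28.9 CPM, with COL3A1 at 0. Of that last sum, PECAM1, which myeloid cells also express, had 14.7 and 27.9 CPM.

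Of the 9 measured feedback genes, 6 were higher in the omipalisib library, none was lower, and 3 had intervals that included 0. DUSP4, DUSP6 and SPRY4 stood above the others, with log2 ratios of 1.65, 0.97 and 0.78, while SPRY2, SPRED1 and SPRED2 were higher by 0.12 to 0.28. The share higher, 66.7%, compares with 26.1% of all measured genes and 26.4% of the protein-coding ones, and the 0 lower with 28.6% of all measured genes. These shares were not matched for depth. The members were chosen with earlier results of these data known, so the comparison is a description and not a test. Intervals narrow with counts, so that SPRED2, with 3883 summed counts, was called higher at 1.08-fold. The median log2 ratio of the 9 was 0.28, against 0.00 over all measured genes, whose central 90% ran from -0.66 to 0.94. DUSP4 alone was at least 2-fold higher with an interval above 0 (11.1% of the 9, against 4.02% of measured genes and 2.99% of protein-coding ones), and no member was at least 2-fold lower (background 1.29%). At a threshold of 1.5-fold, DUSP4, DUSP6 and SPRY4 passed, against 9.58% of measured genes in that direction. With 9 genes, each gene moves such a share by 11.1 percentage points.

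The phosphatase genes split. DUSP4, a nuclear phosphatase of ERK and other MAP kinases, had 218 counts (8.41 CPM) in DMSO and 606 counts (26.4 CPM) in omipalisib. Its ratio was 3.13-fold (interval 2.68 to 3.68), a log2 ratio of 1.65 (1.42 to 1.88), above that of 99.0% of measured genes. DUSP6, the cytoplasmic ERK phosphatase, had 684 counts (26.4 CPM) in DMSO and 1192 counts (51.9 CPM) in omipalisib. Its log2 ratio was 0.97 (0.84 to 1.11), or 1.97-fold, just under the 2-fold rule, and it was above that of 95.3% of measured genes. With scaling by total counts, or with the trend of the ratios with gene length removed, DUSP6 also passed 2-fold, and 2 members were called. The intervals of DUSP4 and DUSP6 did not overlap, so within these libraries the DUSP4 ratio was the larger one beyond counting error.

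The other phosphatases did not differ beyond counting error. DUSP1, a stress- and growth factor-induced nuclear phosphatase, had 81 counts (3.12 CPM) in DMSO and 87 (3.79 CPM) in omipalisib, a log2 ratio of 0.28 (-0.18 to 0.73). DUSP2, a nuclear phosphatase first known from activated blood cells, had 182 counts (7.02 CPM) and 178 (7.74 CPM), for a log2 ratio of 0.14 (-0.16 to 0.45). DUSP5, the ERK-specific nuclear phosphatase, had 145 counts (5.59 CPM) and 123 (5.35 CPM), for a log2 ratio of -0.06 (-0.42 to 0.29), the only member ratio below 0. At these depths, a rise of the size seen for DUSP6 lay outside all 3 intervals. Smaller rises lay within them, up to upper ends of 1.66-fold for DUSP1, 1.36-fold for DUSP2 and 1.23-fold for DUSP5. The DUSP4 and DUSP6 intervals lay wholly above those of DUSP1, DUSP2 and DUSP5.

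The 5 phosphatase genes together had 1310 counts in DMSO and 2186 in omipalisib, a log2 ratio of 0.91 (0.81 to 1.01) of the summed counts. DUSP6 supplied 52.2% of these fragments in DMSO (exact Clopper-Pearson interval 49.5% to 54.9%) and 54.5% in omipalisib (52.4% to 56.6%), intervals that overlap. The share of DUSP4 was 16.6% (14.7% to 18.8%) in DMSO and 27.7% (25.9% to 29.7%) in omipalisib. The DUSP2 share was 13.9% in DMSO and 8.14% in omipalisib and the DUSP5 share 11.1% and 5.63%, although the levels of both differed by less than counting error. These are shares of fragments, to which a long gene such as DUSP4 gives more per molecule. On the scale of CPM per kilobase of exon, the DUSP4 share of the 5 genes was 7.51% in DMSO and 14.5% in omipalisib, and the DUSP6 share 44.4% and 53.6%. On both scales the DUSP4 share was larger in the omipalisib library, while the DUSP6 shares lay close together only as fragments.

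Of the Sprouty genes, SPRY4 had the largest ratio among the 2 measured. SPRY4, an inhibitor of receptor-driven RAS and RAF activation, had 1632 counts (62.9 CPM) in DMSO and 2488 counts (108.2 CPM) in omipalisib, a log2 ratio of 0.78 (0.69 to 0.87). SPRY2, which binds the ubiquitin ligase CBL and the adaptor GRB2, had 2105 counts (81.2 CPM) and 2267 counts (98.6 CPM), for a log2 ratio of 0.28 (0.19 to 0.37). The intervals of SPRY4 and SPRY2 did not overlap, whereas those of SPRY4 and DUSP6 did. SPRY1 had 5 counts in DMSO and 12 in omipalisib, 17 in all and under the minimum; its log2 ratio of 1.36 had an interval from -0.17 to 3.29, too wide to place it.

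The SPRED genes were high in level and close between the libraries. SPRED1, the Legius syndrome gene and a partner of neurofibromin, had 1402 counts (54.1 CPM) in DMSO and 1495 counts (65.0 CPM) in omipalisib, a log2 ratio of 0.27 (0.16 to 0.37). SPRED2 had 1981 counts (76.4 CPM) and 1902 counts (82.8 CPM), for a log2 ratio of 0.12 (0.02 to 0.21). The SPRED2 interval reached to 0.02, and with DESeq2 size factors, which lower every ratio by 0.04, it included 0. As a pair the SPRED genes had 3383 and 3397 counts, for a log2 ratio of 0.18 (0.11 to 0.25), below those of the summed Sprouty genes (0.52, 0.46 to 0.59) and of the summed phosphatases.

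**Figure D2:**
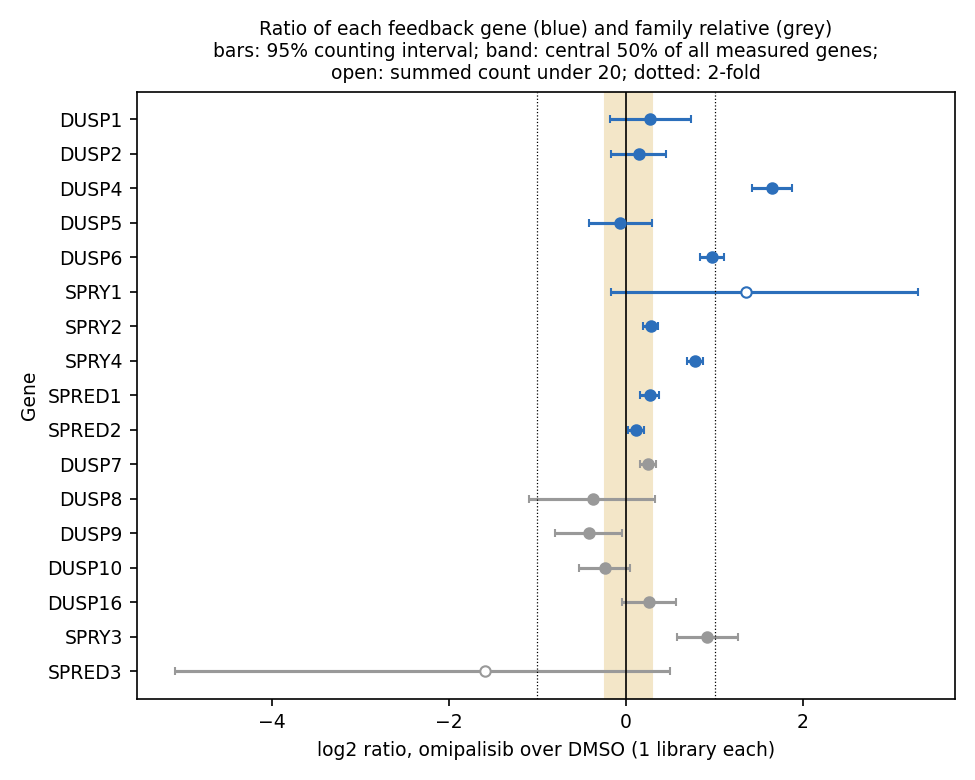
log2 ratio of omipalisib over DMSO for the 10 feedback genes (blue) and 7 family relatives (grey), with 95% counting intervals; the band is the central 50% of all measured genes and open circles have a summed count under 20. DUSP4 (1.65), DUSP6 (0.97), SPRY4 (0.78) and the relative SPRY3 (0.92) lie to the right of the band with their intervals.

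Levels of different genes were compared per kilobase of annotated exon (CPM per kb), a scale on which a gene with many annotated exons that the line does not use reads too low. In DMSO the order was SPRY2 (25.3 CPM per kb), SPRED2 (13.9), SPRY4 (9.59), SPRED1 (6.98), DUSP6 (6.84), DUSP2 (3.64), DUSP5 (2.21), DUSP1 (1.55), DUSP4 (1.16) and SPRY1 (0.049). The exact Poisson intervals overlapped for SPRED1 with DUSP6, for DUSP5 with DUSP1 and for DUSP1 with DUSP4, and all other neighbours in the order lay apart. Sprouty and SPRED messages thus ranked above 4 of the 5 phosphatases, with SPRY1 the exception at the bottom. In omipalisib the order was SPRY2 (30.7 CPM per kb), SPRY4 (16.5), SPRED2 (15.0), DUSP6 (13.4), SPRED1 (8.39), DUSP2 (4.01), DUSP4 (3.63), DUSP5 (2.11), DUSP1 (1.88) and SPRY1 (0.13). There, only DUSP2 with DUSP4 and DUSP5 with DUSP1 overlapped. DUSP4 was the lowest measured member in DMSO and stood above DUSP5 and DUSP1 in omipalisib, and SPRY4 passed SPRED2. SPRY2 was first in both libraries, with a ratio below those of DUSP4, DUSP6 and SPRY4.

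**Figure D3:**
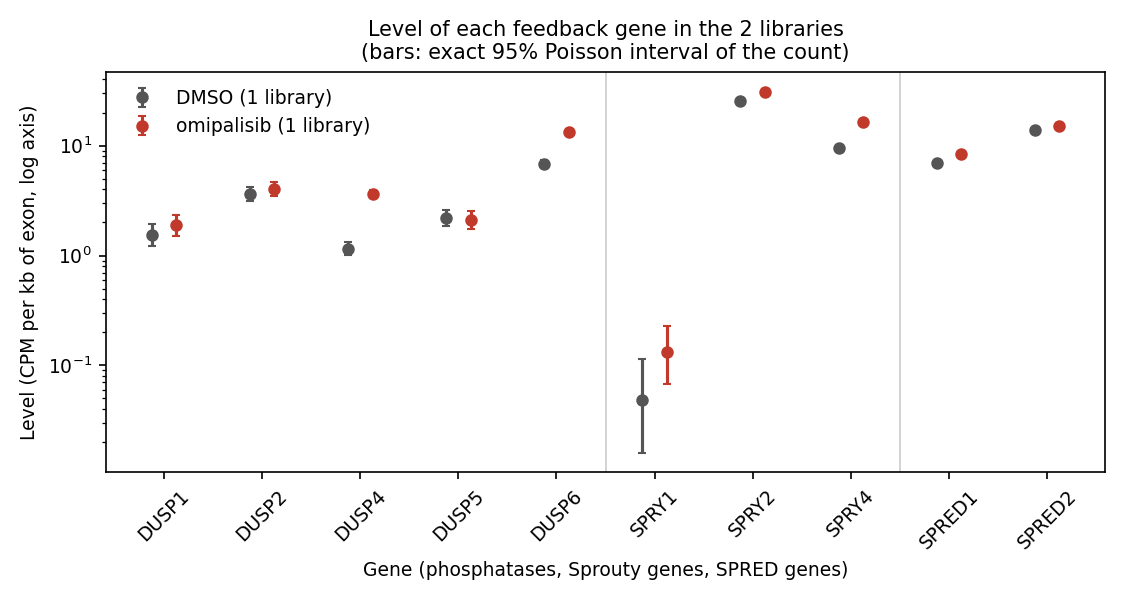
Level of each feedback gene in CPM per kb of exon on a log axis, in the DMSO library (grey) and the omipalisib library (red), with exact 95% Poisson intervals of the counts. The pairs for DUSP4, DUSP6 and SPRY4 are the most widely separated among measured genes, and SPRY1 lies far below the rest.

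The 10 genes lie on 8 chromosomes in GRCh38: DUSP1 (172768096 to 172771195) and SPRY4 (142310427 to 142326455) on chromosome 5, DUSP2 (96143169 to 96145440) and SPRED2 (65310851 to 65432637) on chromosome 2, and the others singly, DUSP4 on 8, DUSP5 on 10, DUSP6 (89347235 to 89352501) on 12, SPRY1 on 4, SPRY2 (80335976 to 80341126) on 13 and SPRED1 on 15. No exon of a member overlaps an exon of another annotated gene on the same strand, so fragments were not lost to a neighbour in the counting. The phosphatase genes are compact, with 4 to 6 separate exon blocks, and SPRED1 and SPRED2 have 9 and 11. The SPRY4 interval (0.69 to 0.87) overlapped the wider one of DUSP1 (-0.18 to 0.73), and that of SPRED2 lay within that of DUSP2.

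Relatives of these families that were not in the list had ratios on both sides of 0. Of the 7 relatives 6 were measured, 2 were higher (33.3%, against 26.1% of all measured genes), 1 was lower (16.7%, against 28.6%) and 3 had intervals that included 0. Their median log2 ratio was 0.01, and its sign depended on the settings: it was -0.24 with no minimum beyond 1 count, -0.03 with DESeq2 size factors and 0.25 with a summed count of at least 100. SPRY3, the remaining Sprouty gene, had 111 and 186 counts, for a log2 ratio of 0.92 (0.57 to 1.27). DUSP7, a cytoplasmic ERK phosphatase related to DUSP6, had 1832 and 1932 counts, for a log2 ratio of 0.25 (0.16 to 0.34), and at 12.5 CPM per kb in DMSO it exceeded every phosphatase of the list. DUSP9, the third phosphatase of that cytoplasmic group, had 149 and 99 counts, for a log2 ratio of -0.41 (-0.80 to -0.04), and its interval included 0 with scaling by total counts. The phosphatases that prefer JNK and p38 had ratios of 0.26 (DUSP16), -0.24 (DUSP10) and -0.37 (DUSP8), each with an interval that included 0. SPRED3 had 8 and 2 counts and was not measured.

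Genes of the cascade itself had a median slightly below 0. Of 20 measured genes from receptor adaptors to ERK and its RSK substrates, 11 were lower (55%, against 28.6% of all measured genes) and 6 higher (30%, near the 26.1% of all measured genes), and none reached 2-fold. Their median was -0.09, or -0.04 with scaling by total counts. The scaffold and adaptor genes GAB2 (118 and 187 counts) and KSR1 (156 and 243 counts) had log2 ratios of 0.84 (0.50 to 1.18) and 0.81 (0.52 to 1.11). SOS2, a RAS activator, had 0.61 (0.49 to 0.73). HRAS was the lowest at -0.35 (-0.53 to -0.17), followed by the adaptor SHC1 at -0.29 (-0.36 to -0.21) and the phosphatase PTPN11 at -0.29 (-0.34 to -0.24). SHC1 and KSR1 each overlap an annotated gene on their strand, which makes their counts less certain.

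Among 13 other brakes on RAS and partners of Sprouty or SPRED, 11 were measured, 2 were lower (18.2%, against 28.6% of all measured genes) and 7 higher (63.6%, against 26.1%). Their median was 0.24, or 0.12 with the length trend removed. CBLB, a ubiquitin ligase of the CBL family, had 176 and 334 counts, for a log2 ratio of 1.10 (0.83 to 1.37), and was the gene of this list at least 2-fold higher (9.09%, against 4.02% of all measured genes). RASA1, a RAS GTPase-activating protein, had 2839 and 4077 counts, for a log2 ratio of 0.70 (0.63 to 0.77), and the receptor inhibitor LRIG1 had 0.51 (0.28 to 0.75). On the lower side, PEBP1, the RAF kinase inhibitor protein, had 8252 and 5344 counts, for a log2 ratio of -0.45 (-0.50 to -0.40), and LZTR1, an adaptor for RAS degradation that overlaps a gene on its strand, had -0.28 (-0.41 to -0.16). ERRFI1, an inhibitor of EGF receptors, had -0.13 (-0.38 to 0.11). NF1, through which SPRED proteins act, had 3477 and 3643 counts, for a log2 ratio of 0.24 (0.17 to 0.31).

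ERK output genes outside the feedback set had a higher median than the feedback genes, with members in both directions. Of 22 measured, 14 were higher (63.6%, against 26.1% of all measured genes), 2 were lower (9.09%, against 28.6%) and 6 had intervals that included 0. Their median was 0.47, and 5 were at least 2-fold higher (22.7%, against 4.02%). EGR3, EGR2 and IER3, early response genes, had log2 ratios of 2.38 (1.60 to 3.33), 1.90 (1.30 to 2.57) and 1.61 (1.40 to 1.84); EGR3 and EGR2 had only 15 and 29 counts in DMSO. ATF3, a stress-induced transcription factor, had -0.57 (-0.88 to -0.27), FOS -0.40 (-0.53 to -0.28) and the ETS factor ETV4 -0.19 (-0.41 to 0.04). The DUSP4 ratio was close to that of IER3. Those of DUSP1, DUSP2, DUSP5, SPRY2, SPRED1 and SPRED2 lay below the median of this list. This list and the feedback genes were chosen with earlier results of these data known, and an overlapping set had already been seen to be higher, so neither is independent evidence of the other.

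**Figure D4:**
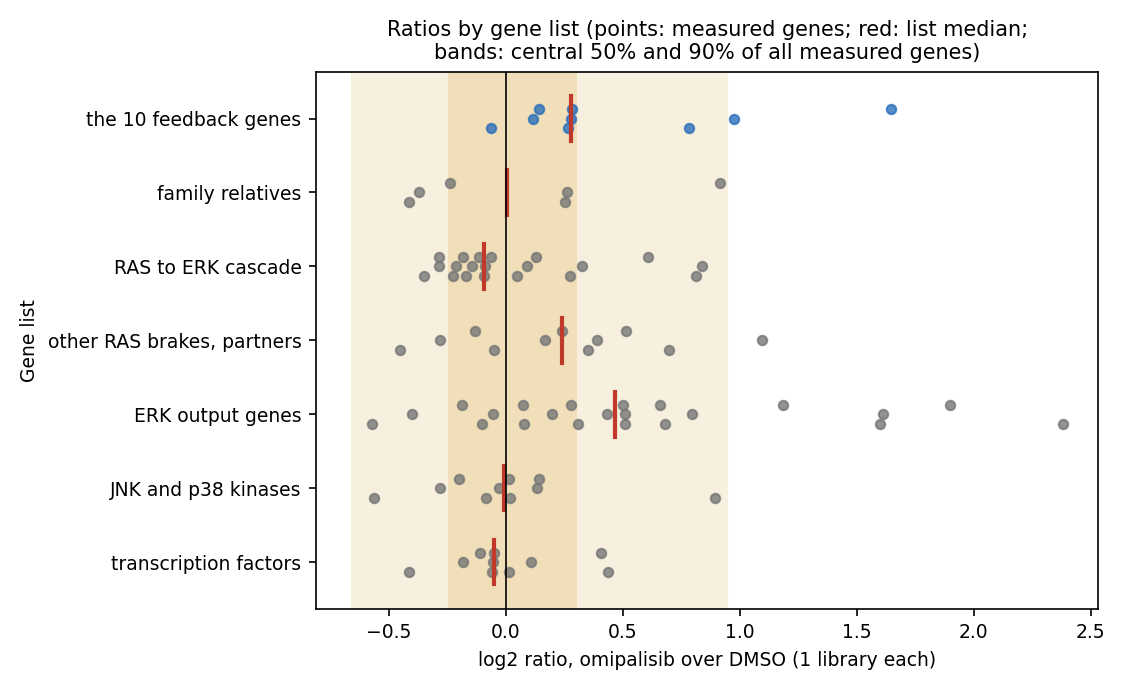
log2 ratio of each measured gene (points) by list, with the list median in red and the central 50% and 90% of all 15660 measured genes as bands. Of the feedback genes, DUSP4 (1.65) and DUSP6 (0.97) lie to the right of both bands. So do CBLB (1.10) among the other RAS brakes and the 5 ERK output genes at least 2-fold higher. The list medians were 0.28 for the feedback genes, 0.47 for the ERK output genes and -0.09 for the cascade genes.

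The 10 myeloid markers differed in both directions between the libraries: 6 were higher, 2 were lower and 2 had intervals that included 0. CSF3R, the G-CSF receptor, had 54.4 CPM in DMSO and 116.4 CPM in omipalisib, a log2 ratio of 1.10, and CD14, a monocyte coreceptor, had 2.04 and 9.62 CPM, a log2 ratio of 2.22 (1.80 to 2.69). On the lower side, the granule genes LYZ and ELANE had log2 ratios of -0.39 (-0.43 to -0.34) and -0.41 (-0.47 to -0.35). MPO, myeloperoxidase, had -0.58 (-1.22 to 0.03) and the integrin gene ITGAM 0.73 (-0.03 to 1.53). The other 4 markers (CD33, SPI1, CEBPA and AZU1) were higher by 0.08 to 0.32. The part of any such difference in the feedback gene ratios was not tested.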

How the data were processed

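The authors deposited 1 table of raw counts for each library. Per the file headers, featureCounts 2.0.1 counted read pairs, where both ends were aligned, in the exons of each gene with strand setting 2, so antisense genes are kept apart. The aligner is not given in the sources used here. Per the submitters' processing notes the builds are hg19 and GRCh37. Of 58516 genes also in GENCODE release 29, 58468 overlap that release's GRCh38 positions, so coordinates are given as GRCh38. Symbols came from the supplied gene name table, and promoter sequences from RefSeq.

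Libraries were scaled with TMM in edgeR 4.0.16 (R 4.3.3), 0.5 was added to each count for the log2 ratio, and the 95% interval was derived from the binomial share of a gene's counts that came from omipalisib (Clopper-Pearson, exact). Intervals and floors cover counting error only, since each treatment has 1 library. The libraries carry no stated molecular identifiers, so PCR copies may be counted more than once and the intervals may be too narrow. With 1 library on each side, no model across genes was used. All members are named, with up to 3 genes at each end of the other lists and all family relatives; NF1, the myeloid markers and PECAM1 were added after their values were seen. No gene is named for a similar pattern, since 2 libraries give a single ratio per gene. Of the markers, 1 erythroid gene is not reported here. The members and lists were chosen with earlier results of these data known. The ratio, interval and 2-fold rule were tested on simulated Poisson counts. Those hold no variation between cultures and no PCR copies, so the test checks the calculation only. Alternatives were other scalings, another added count, other minimum counts, a lower fold and, chosen after seeing the data, removal of a trend with gene length over 20 bins.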

Additional observations from a re-analysis of the deposited data

How the results depend on the processing

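All 9 measured members kept the sign of their log2 ratio under every alternative run. The alternatives move a ratio only slightly, so most signs could hardly have changed. For DUSP1, DUSP2 and DUSP5 the sign itself lay within counting error. DUSP4 ranged from 1.61 to 1.70, DUSP6 from 0.94 to 1.03, SPRY4 from 0.74 to 0.83, and DUSP5 from -0.10 to -0.00. The number of members at least 2-fold higher, 1 in the reported analysis, was 2 with scaling by total counts, 2 with the length trend removed and 3 at 1.5-fold. Members with an interval above 0 numbered 6 except with DESeq2 size factors (5). Family relatives with an interval below 0 went from 1 to 0 with scaling by total counts and to 0 with the length trend removed. Transcription factors with an interval below 0 went from 3 to 6 with DESeq2 size factors and to 6 with the length trend removed. The count at 1.5-fold comes from the lower threshold itself. The shifts with other scalings come from ratios close to a threshold: against TMM, total counts moved every ratio by 0.05 and DESeq2 size factors by -0.04. The medians subtracted with the length trend differed between length bins, from -0.07 to 0.13. No paired analysis was possible because each treatment has 1 library. Variation between cultures is outside every interval, and depth leaves SPRY1 unplaced.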

Other observations

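Kinases of the other MAP kinase arms and the transcription factors linked to feedback genes were called higher or lower at shares near those of all measured genes (26.1% higher, 28.6% lower), apart from 40% of the kinases lower. Of 10 measured JNK and p38 pathway kinases, 4 were lower and 3 higher, and the median log2 ratio was -0.01 (0.04 with scaling by total counts). MAPK13, the p38 delta kinase, had 109 and 180 counts, for a log2 ratio of 0.89 (0.55 to 1.25), and MAP2K6, an activator of p38, had 177 and 106 counts, for a log2 ratio of -0.56 (-0.93 to -0.21). MAP2K7 and MAPK8 had 0.14 and 0.13, and MAPK9 and MAP2K4 -0.28 and -0.20. Of 10 measured transcription factors, 3 were higher, 3 were lower, and the median was -0.05. ETS1 had 0.44 (0.32 to 0.56), ETV6 0.41 (0.35 to 0.46) and SRF 0.11 (0.02 to 0.20). ETS2 had -0.41 (-0.50 to -0.33), CIC, a repressor that ERK relieves, -0.19 (-0.27 to -0.10), and GABPA -0.11 (-0.21 to -0.02).

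The nearest measured protein-coding genes on each side of the 3 measured members with the largest ratios had smaller ratios than those members. These members were picked for large ratios, above those of 99.0% (DUSP4), 95.3% (DUSP6) and 92.2% (SPRY4) of measured genes. Smaller ratios were therefore likely for almost any neighbour and carry little information. Beside DUSP4, KIF13B (69.9 kb away) and SARAF (712 kb away) had log2 ratios of 0.15 and 0.16. Beside DUSP6, TMTC3 (1147 kb away) had -0.34 and POC1B (67.2 kb away) 0.22. Beside SPRY4, NDFIP1 (156 kb away) had 0.36 (0.25 to 0.49) and ARHGAP26 (444 kb away) 0.12. The antisense gene SPRY4-AS1, counted separately by strand, had 23 and 33 counts, for a log2 ratio of 0.69 with an interval from -0.12 to 1.53. Among the nearest measured neighbours of the other measured members, 3 had a ratio above that of the member beside them: SLITRK6 beside SPRY2 (9 and 28 counts) at 1.76 (0.69 to 3.08), ANKRD36C beside DUSP2 at 0.75 (0.37 to 1.14) and MEIS1 beside SPRED2 at 0.14 (0.01 to 0.26). The rest ran from -0.54 (NEURL1B beside DUSP1, -1.73 to 0.54) to 0.08 (MEIS2 beside SPRED1). These neighbours were chosen by position after the members' values were seen, and nearest among measured genes is not always near. SLITRK6 lies 5452 kb, MEIS2 1152 kb and MEIS1 1001 kb from the member, against 151 kb for ANKRD36C and 76.6 kb for NEURL1B.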
